A study of Chenopodium quinoa with 24 samples.

Results

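The shoot heat response of quinoa on warm roots was read from leaves on the first day of heating, as the difference between HRS plants (roots at 30°C, shoots at 35°C; 3 plants) and HR plants (roots at 30°C, shoots at 22°C; 3 plants). Both groups had heated roots, so the air around the shoot was the labelled difference between them. All transcripts tested in both the HRS and the HR fit of day 1 were taken, which were 29794 of the 44776 transcripts listed. The series held 24 leaf samples of the accession QQ74 in 8 groups of 3 plants, covering day 1 and day 11 of HRS, HR, HS (roots at 22°C, shoots at 35°C) and control (both at 22°C). Heating began at first anthesis, leaves were taken at ZT2, and each sample was a separate plant. HRS and HS stood in a hot growth chamber and HR and control in a cool one, each treatment in its own box, so chamber and box cannot be told apart from shoot heating.

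When leaf temperature climbs, proteins begin to unfold and heat shock factors switch on chaperone genes. Small heat shock proteins (HSPs) hold unfolding proteins, HSP101 pulls aggregates apart, HSP70 and HSP90 refold clients with the help of co-chaperones, and chaperonins fold proteins inside plastids and mitochondria. The circadian clock and the flowering pathway also respond to temperature, and CDF proteins are repressors of CO and FT, the genes that promote flowering.

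Differences are HRS minus HR in natural log units of the normalized estimated count, with their standard error (SE), and a fold is the exponential of that difference. The table gave no value for a single plant. It gave the mean over the 3 treated and 3 control plants of each fit, called here the authors' mean, and the control plants cancel when 2 times the difference between the HRS and the HR fit is taken. A transcript was called when its adjusted p (limma, Benjamini-Hochberg over all transcripts) was under 0.05. Since these are whole leaves, fewer cells of a type and less RNA per cell cannot be told apart. Gene names are those of the Arabidopsis locus matched in the table, and 28252 tested transcripts carried one, spread over 12396 loci. Several copies of a gene may share reads, and 230 transcripts had both means identical to another transcript.

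On day 1, 6126 transcripts differed between hot and cool shoots on warm roots (20.6%). Of these, 3237 were higher in HRS (10.9%) and 2889 were lower (9.7%). The median difference was 0.64 among the higher transcripts and -0.56 among the lower ones, and 90% of all tested transcripts lay between -0.83 and 0.87. The largest changes were mostly increases: at least 10-fold in 104 higher and 80 lower transcripts, and at least 100-fold in 21 higher and 2 lower transcripts. With the largest variance that the fits allow for HRS and HR (the strict variance), 1991 transcripts were called, 1225 higher and 766 lower. Among the 7449 transcripts with the highest estimated counts the median SE was 0.09 and 34% were called, and among the 7449 with the lowest it was 0.39 and 7.33% were called.

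**Figure D1:**
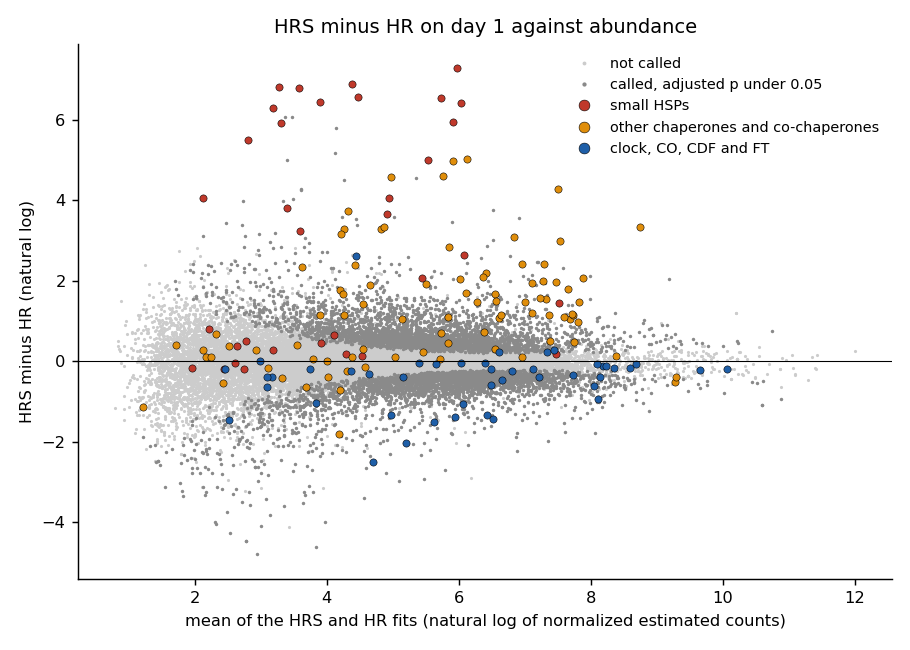
HRS minus HR on day 1 (natural log, vertical axis) against the mean normalized estimated count (natural log, horizontal axis), one point per tested transcript, light grey where not called and dark grey where called, with small HSPs in red, other chaperones in orange and clock, CO, CDF and FT transcripts in blue. The 21 transcripts that were at least 100-fold higher form the top of the cloud, and 2 called transcripts were at least 100-fold lower.

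Small HSPs were most of the 10 highest differences above the lower quartile of estimated counts. In the cytosol and peroxisome, 14 of 16 tested transcripts rose and none fell, with a median difference of 3.94, against a median of 0 over all transcripts. This list held 30 transcripts, of which 27 were tested in HRS minus HS. Copies tested in the HRS fit but not in the HR fit are therefore left out of the count and the median. HSP17.6C, a class I small HSP of the cytosol, is shown by AUR62009590, whose authors' mean was 7.37 in the HRS fit and 4.09 in the HR fit. This gave a difference of 6.53 (SE 0.10), a 687-fold higher level in HRS, with an adjusted p of 3.93e-10. Further HSP17.6C copies differed by 6.89 (AUR62012170, 978-fold), 6.78 (AUR62012220), 6.43 (AUR62001804) and 5.95 (AUR62022806). One copy of the same locus stood apart, since AUR62029442 differed by 0.19 (SE 0.18) and was not called, although its authors' mean was 7.53 in the HRS fit. The class II small HSP HSP17.6II rose in both copies, by 6.29 (AUR62009102) and 5.0 (AUR62020570).

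Among organelle small HSPs, 7 of 18 tested transcripts (28 listed) rose and none fell, with a median difference of 0.58. The plastid chaperone HSP25.3 held the largest difference of all transcripts. For AUR62035610, the authors' mean was 7.80 in the HRS fit and 4.14 in the HR fit, a difference of 7.28 (SE 0.12), 1454-fold (adjusted p = 5.62e-10). It was a single copy that carried this change. The other 11 transcripts matched to HSP25.3 lay between -0.19 and 0.80, and none was called. HSP23.6 of the mitochondrion rose by 6.56 (AUR62039962) and 4.06 (AUR62007509). HSP22.0, which resides in the endoplasmic reticulum (ER), rose by 6.83 (AUR62040131) and 6.44 (AUR62032476).

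The disaggregase group rose as a whole, with 8 of 8 transcripts higher and a median difference of 2.97. HSP101, the cytosolic disaggregase that plants need to survive severe heat, rose in both copies. AUR62021576 had an authors' mean of 6.12 in the HRS fit and 3.82 in the HR fit, a difference of 4.58 (SE 0.20, 97.1-fold). AUR62008514 differed by 3.09 (SE 0.09, 22.1-fold). HSA32, which prolongs acquired heat tolerance in Arabidopsis, rose by 3.30 and 3.28, and the organelle disaggregases CLPB3 and CLPB4 rose by 1.48 to 2.84.

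HSP90 transcripts did not all move in one direction, since 9 of 12 rose and 2 fell (median 1.68). The inducible cytosolic HSP90-1 rose by 5.03 (AUR62031424, SE 0.22) and 4.29 (AUR62021118, SE 0.15), and plastid HSP90-5 by 2.00 (AUR62003042). By contrast, HSP90-2 AUR62017128 had an authors' mean of 9.16 in the HRS fit and 9.40 in the HR fit, a difference of -0.50 (SE 0.12, adjusted p = 0.0148). HSP90-4 AUR62035682 differed by -0.38 (SE 0.11, adjusted p = 0.0334). Neither fall was called with the strict variance.

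In the HSP70 and HSP110 list, 12 of 17 transcripts rose and none fell (median 0.71). HSP70-7 of the plastid rose by 4.99 (AUR62023527, 147-fold), and HSP70-8 by 3.33 (AUR62024018) and 3.15 (AUR62041322). Among co-chaperones, 11 of 30 tested transcripts (64 listed) rose and none fell (median 0.33). BAG6, a regulator of HSP70, rose by 4.62 (AUR62004430, SE 0.13) and 3.35 (AUR62022637, SE 0.10), and P23-2, a partner of HSP90, by 3.75 (AUR62041288). Most of the co-chaperone transcripts without a call were copies matched to FKBP62, with authors' means under 4.5 in the HRS fit.

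Chaperonins, the barrel-shaped folding machines of plastids and mitochondria, rose in 18 of 20 transcripts and fell in 1 (median 1.61). CPN20, the co-chaperonin of the plastid, rose by 2.42 (AUR62025283) and 2.41 (AUR62028287), and HSP60 of the mitochondrion by 2.19 and 2.1. The exception was CPN10-2 AUR62038765, at -1.79 (SE 0.48, adjusted p = 0.0265), which was not called with the strict variance. In the ER, 14 of 25 folding and unfolded protein response transcripts rose and 1 fell (median 0.79), and 7 rose with the strict variance. BIP2, the HSP70 of the ER, rose by 4.52 (AUR62005192, SE 0.41), 3.58 (AUR62000777, SE 0.24), 1.4 (AUR62035560) and 1.26 (AUR62006067). The stress sensor IRE1A fell by 0.24 in AUR62035151, though not with the strict variance.

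**Figure D2:**
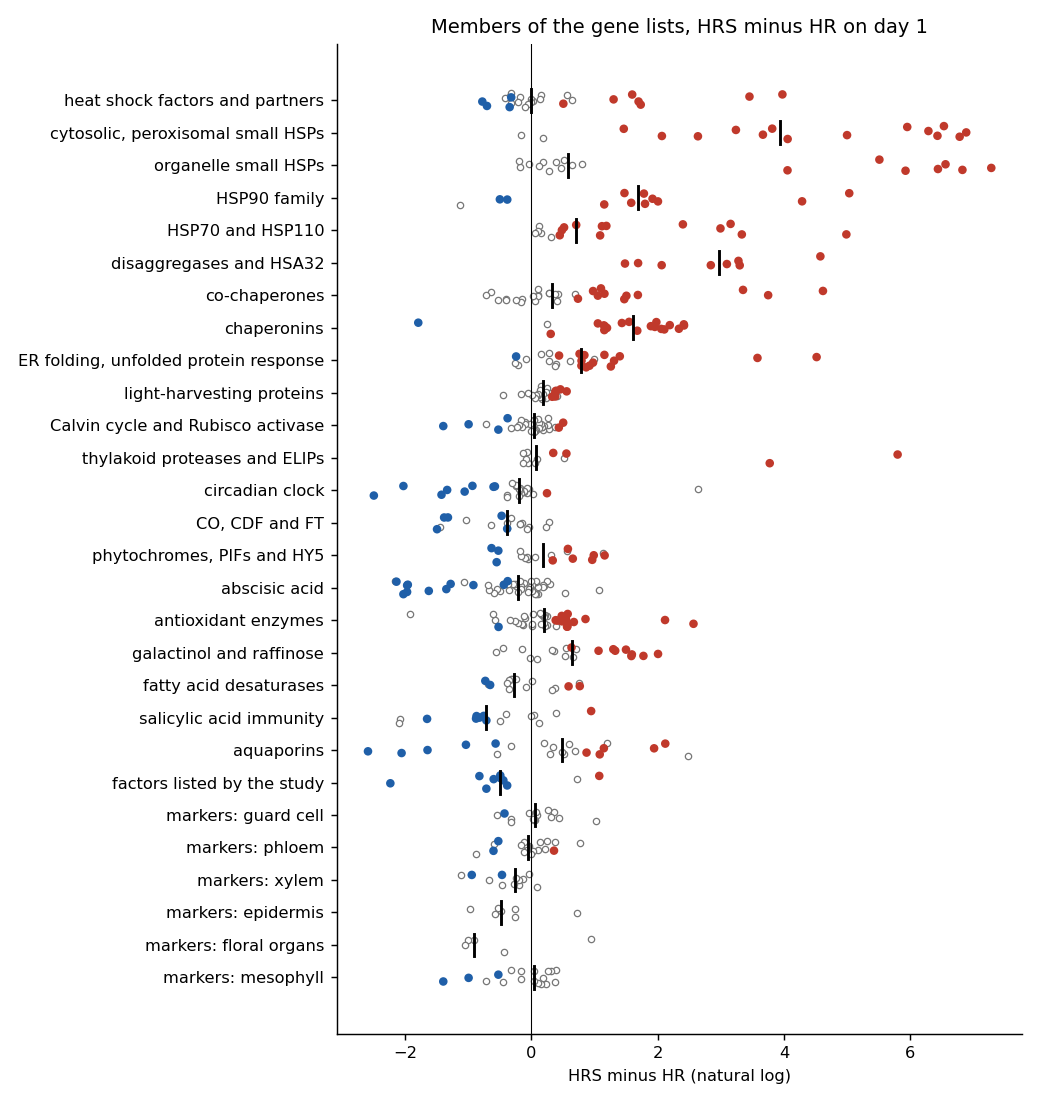
HRS minus HR on day 1 (natural log) for each tested member of the gene lists, one row per list, with called members filled (red higher, blue lower), the rest open, and a black bar at the median. The medians of cytosolic small HSPs (3.94), disaggregases (2.97) and HSP90 (1.68) lie far above 0, and those of the clock (-0.20) and of salicylic acid immunity (-0.71) lie below it.

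Heat shock factors and their partners were divided. Of 26 tested transcripts, 7 rose and 4 fell, with a median of -0.01, and with the strict variance 5 rose and 1 fell. MBF1C, a coactivator required for heat tolerance in Arabidopsis, rose by 3.97 (AUR62011023, SE 0.36) and 3.45 (AUR62033396, SE 0.18). The B class factors, which repress other heat shock factors, also rose: HSFB2B by 1.73 (AUR62017275), and HSFB1 by 1.70 (AUR62001930) and 1.3 (AUR62003880). HSFA2, the factor that sustains the response in Arabidopsis, was not called in either copy, with differences of -0.01 (SE 0.19) and -0.36 (SE 0.18). HSFC1 fell in both copies, by 0.78 (AUR62010997) and 0.70 (AUR62021507).

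In the plastid, the thylakoid protease FTSH6, which degrades a plastid small HSP in Arabidopsis, rose by 5.80 (AUR62037524, SE 0.56, 330-fold) and 3.77 (AUR62004729, SE 0.25). The other 10 transcripts of thylakoid proteases and early light-induced proteins held 2 small increases, both in the protease DEG1. Light-harvesting proteins rose in 6 of 25 transcripts (median 0.18), all of them antennae of photosystem I, led by LHCA1 at 0.56 (AUR62018252, SE 0.11). None of these 6 was called with the strict variance. In the Calvin cycle list, 2 of 33 transcripts rose (6.06%) and 4 fell (12.1%), with a median of 0.04. These shares lie near the 10.9% higher and 9.7% lower over all transcripts, and here too none was called with the strict variance. Rubisco activase (RCA), whose protein is heat-labile, differed by 0.04 (SE 0.18) and -0.16 (SE 0.21). The falls included 3 copies of the Rubisco small subunit RBCS1A, of -1.4, -1.0 and -0.52.

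Antioxidant enzymes rose in 15 of 41 transcripts and fell in 1 (median 0.20), and 7 rose and 1 fell with the strict variance. The plastid iron superoxide dismutase FSD2 rose by 2.57 (AUR62030413, 13.0-fold) and 2.12 (AUR62010480). The copper-zinc enzyme CSD1 rose by 0.86 (AUR62000929). Transcripts for galactinol and raffinose, sugars that protect cells under stress, rose in 9 of 20 and fell in none (median 0.64). Galactinol synthase GOLS1, a heat shock factor target in Arabidopsis, rose by 2.00 (AUR62011750) and 1.77 (AUR62024594), and DIN10, of the raffinose synthase family, by 1.59 (AUR62013309).

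Aquaporins were divided, with 5 of 21 higher and 5 lower (median 0.49), and 4 higher and 1 lower with the strict variance. The plasma membrane channel PIP1-4 rose by 2.12 (AUR62022576) and 1.94 (AUR62004367) but fell by 1.65 in AUR62010692. The vacuolar channel TIP1-3 fell by 2.59 in AUR62001840 and 2.06 in AUR62009628, and rose by 1.15 in AUR62041570. With the strict variance, the falls of PIP1-4 AUR62010692 and TIP1-3 AUR62009628 and the rise of TIP1-3 AUR62041570 were not called. Among fatty acid desaturases, 2 of 16 rose and 2 fell (12.5% each, median -0.28), near the 10.9% higher and 9.7% lower over all transcripts. FAB2, which makes the first double bond, rose by 0.77 and 0.59. FAD8, which makes trienoic fatty acids in the plastid and is reduced at high temperature in Arabidopsis, fell by 0.65 (AUR62012262, adjusted p = 0.0212), a call lost with the strict variance.

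The deepest falls, again above the lower quartile of estimated counts, were smaller than the highest rises. An O-methyltransferase family transcript matched to At1g77520 had an authors' mean of 2.69 in the HRS fit and 4.98 in the HR fit, a difference of -4.61 (SE 0.42, 100-fold lower). The receptor kinases WAKL10 and CRK25 differed by -4.00 (SE 0.96) and -2.68 (SE 0.76). PCR2, a metal transport protein, fell by 3.38 (SE 0.43). NIA2, the nitrate reductase that carries out the first step of nitrate assimilation, fell by 2.69 (AUR62004699, SE 0.34). Falls of -3.25 in the sesquiterpene synthase TPS21, -3.09 in At5g02890, -2.97 in At4g16260, -2.91 in At5g48490 and -2.77 in CYP72A14 completed the lowest 10. WAKL10, CRK25, TPS21, At4g16260 and At5g48490 were not called with the strict variance. The smallest p-values among the falls belonged to moderate changes, in the sterol methyltransferase SMT3 (-0.98), the transporter NPF8.3 (-0.97), At4g08690 (-1.02), the receptor kinase RLK1 (-1.66) and the phosphoenolpyruvate carboxylase PPC3 (-1.28).

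In the clock, 8 of 27 transcripts fell and 1 rose (median -0.20), and the 8 falls were also called with the strict variance. They were the copies of 4 genes. PRR9, a morning-phased repressor, had an authors' mean of 4.08 in the HRS fit and 5.32 in the HR fit for AUR62028076, a difference of -2.50 (SE 0.29, 12.1-fold lower), and its copy AUR62022677 differed by -0.93 (SE 0.09). PRR5, a repressor active later in the day, fell by 2.03 (AUR62005995) and 0.60 (AUR62004561). GI, which links the clock to flowering, fell by 1.42 (AUR62034894) and 1.34 (AUR62026637), and the activator RVE8 by 1.06 and 0.58. LHY, a core morning factor, differed by -0.20 in both copies (SE 0.15 each) and was not called. TOC1, the evening component, differed by 0.02 (SE 0.47) and -0.39 (SE 0.31). ELF3, a temperature-sensitive evening repressor in Arabidopsis, rose by 0.25 in AUR62009205 (adjusted p = 0.036). This call was lost with the strict variance, with a z test and without a trend over abundance.

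Of 18 transcripts of CO, CDF and FT, 5 fell and none rose (median -0.38). CDF3 fell in 4 of its 5 tested copies, by 1.38 (AUR62005809), 1.32 (AUR62032799), 0.47 (AUR62021670) and 0.38 (AUR62008425). With the strict variance 3 transcripts of this list were called, and the call of CDF3 AUR62008425 was lost. One FT copy, AUR62000271, fell by 1.5 (SE 0.28, adjusted p = 0.00512), a call lost with the strict variance. The FT copies AUR62006619 and AUR62013052, with authors' means of 8.15 and 7.72 in the HRS fit, differed by -0.38 (SE 0.17) and -0.33 (SE 0.11) and were not called. The light receptor genes moved in both directions, with 6 of 18 transcripts of phytochromes, PIFs and HY5 higher and 3 lower (median 0.19), and 3 higher and 1 lower with the strict variance. PHYA rose by 1.16 and 0.96 and PHYB, which also senses temperature in Arabidopsis, by 0.99 (AUR62039279), while PHYC fell by 0.52 (AUR62029114) and HYH by 0.63.

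The study listed 10 transcription factors, a list chosen on these samples and so no independent evidence of its direction. In HRS against HR, 8 of the 10 were lower and 1 was higher (median -0.49), and 6 were lower and none higher with the strict variance. NAC036 fell by 2.23 (SE 0.29), PHL13 by 0.82, BHLH68 by 0.71 and ARF2, a repressor in auxin signalling, by 0.60. Smaller falls were found in At3g48440 and AGL14 (-0.49 each), AGL24 (-0.44) and the CDF3 copy AUR62008425. FRS11 rose by 1.07 (SE 0.21), and BHLH113 differed by 0.72 (SE 0.33, adjusted p = 0.158).

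**Figure D3:**
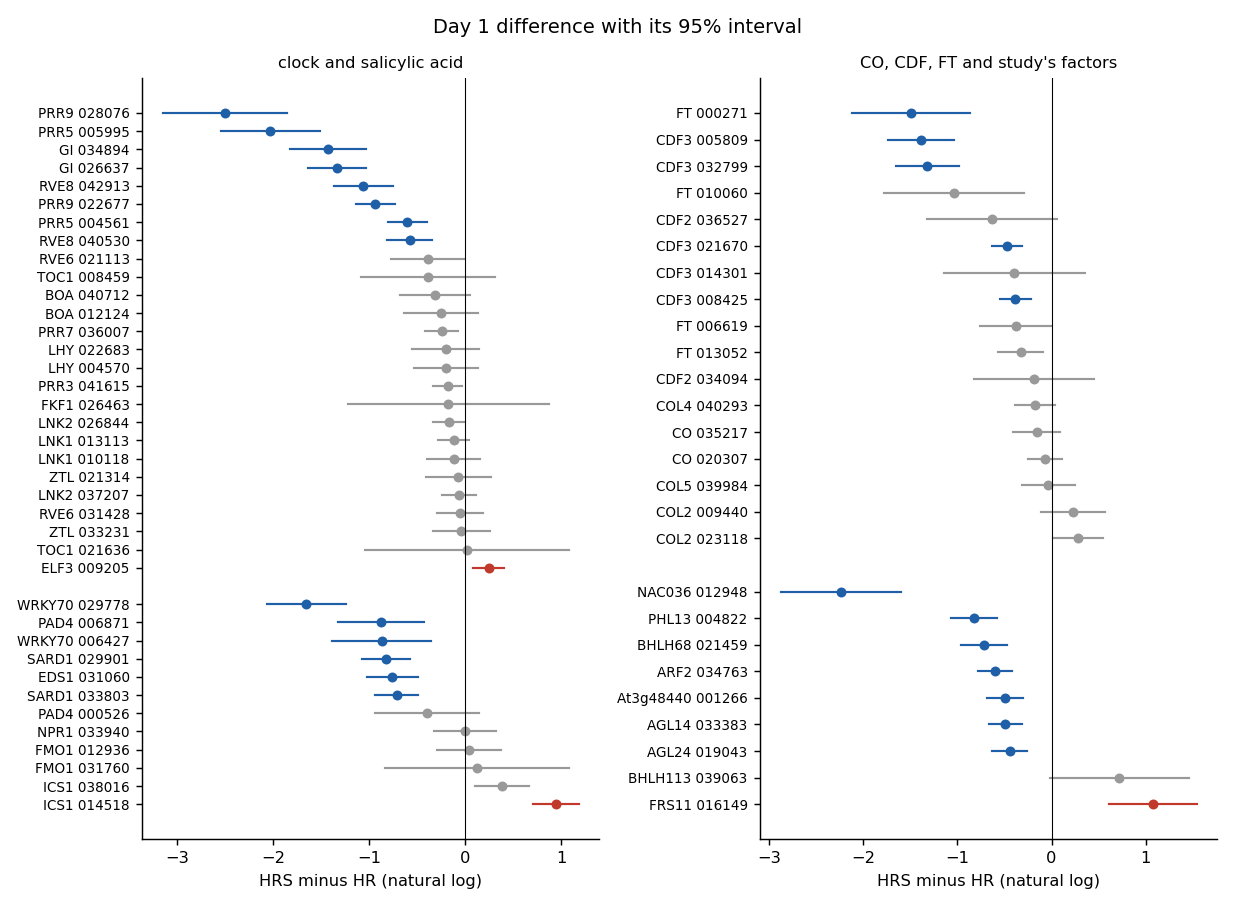
HRS minus HR on day 1 (natural log) with 95% intervals, grey where not called, leaving out estimates with an SE of 0.5 or more. The left panel holds clock and salicylic acid immunity transcripts. The right panel holds CO, CDF and FT transcripts and the listed transcription factors. Labels end in the last 6 digits of the transcript identifier, and the listed CDF3 copy is drawn once, with CDF. PRR9, PRR5, GI and RVE8 lie below 0, and the LHY copies, at -0.20, have intervals that include it.

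Abscisic acid transcripts fell in 11 of 49 and rose in none (median -0.22), and 5 of these falls were called with the strict variance. NCED5, of the rate-limiting step of synthesis, fell in 3 copies by 1.96, 1.63 and 1.35. ABI5, a transcription factor of the response, fell by 2.03 (AUR62006172, SE 0.27), and the phosphatase HAI3 by 2.14 (SE 0.36). Transcripts of salicylic acid immunity fell in 6 of 15 and rose in 1 (median -0.71), and 4 fell and 1 rose with the strict variance. WRKY70 fell by 1.65 (AUR62029778, SE 0.18) and 0.87 (AUR62006427), PAD4 by 0.88 and EDS1 by 0.76. ICS1, the enzyme of salicylic acid synthesis, rose by 0.95 (AUR62014518, SE 0.11). The falls of WRKY70 AUR62006427 and of PAD4 were not called with the strict variance.

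Across 258 GO-slim terms with at least 30 tested transcripts, the 3 largest shares of higher transcripts were in protein folding (43.9% of 239, with 3.35% lower and a median of 0.37), mitochondrion organization (35.7% of 154, with 3.9% lower and a median of 0.28) and thylakoid (29.3% of 75, with 2.67% lower and a median of 0.14). The 3 largest shares of lower transcripts were in phagocytosis (31.9% of 72, with 2.78% higher and a median of -0.26), calmodulin binding (22.7% of 88, with 7.95% higher and a median of -0.22) and lipid transporter activity (21.9% of 32, with 12.5% higher and a median of -0.03). Ribosome, a term chosen after its values were seen, was higher in 24.1% and lower in 1.15% of 435 transcripts (median 0.20). These shares stand beside 10.9% higher and 9.7% lower over all transcripts.

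Markers of the cell types of a leaf were set beside the shares over all transcripts, 10.9% higher and 9.7% lower. Guard cell markers held 1 fall among 15 transcripts (median 0.06), phloem markers 1 rise and 2 falls among 20 (median -0.05), mesophyll markers 3 falls among 18 (16.7%, median 0.04), and xylem markers 2 falls among 12 (16.7%, median -0.25), with 1 of the 12 above 0. Epidermis markers held no call among 7 (median -0.48), with 1 of the 7 above 0, and floral markers none among 5 (median -0.92). The mesophyll markers RCA had authors' means of 11.4 and 11.0 in the HRS fit and the floral markers had means under 3.5. The part of cell composition in the differences was not tested.

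On day 11, in other plants of the same groups, fewer transcripts were called between HRS and HR. Of 29912 transcripts, 675 were called (2.26%), 217 higher (0.725%) and 458 lower (1.53%), and none with the strict variance, where 2404 had an unadjusted p under 0.05. Without centring, 135 were higher and 847 lower. In the main t test, 5699 had an unadjusted p under 0.05 on day 11, against 10033 of 29794 on day 1. Precision was lower on day 11, with a median SE of 0.186 against 0.154 on day 1. Of the 3213 transcripts higher on day 1 and tested on day 11, 102 were higher again and 8 were lower, with a median difference of 0.17 on day 11 and 0.64 on day 1. Of the 2854 lower ones, 126 were lower again and 3 were higher, with medians of -0.18 on day 11 and -0.55 on day 1. Both sets were chosen by their day 1 calls, which enlarges their day 1 medians. These medians therefore do not measure a change between the days. The sign was the same on both days in 73.9% of the higher and 76.6% of the lower transcripts, against 62.4% of all tested.

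The difference between the days was tested directly, as day 11 minus day 1. It was called in 1235 of 28879 transcripts (4.28%), 345 higher (1.19%) and 890 lower (3.08%), and without centring in 1931, 213 higher and 1718 lower. The chaperone differences were smaller on day 11. HSP25.3 AUR62035610 differed between HRS and HR by -0.74 on day 11 and 7.28 on day 1, and HSP17.6C AUR62009590 by -0.30 on day 11 and 6.53 on day 1. HSP101 AUR62021576 kept a called difference of 1.35 on day 11, against 4.58 on day 1, and HSP23.6 AUR62039962 one of 2.81, against 6.56 on day 1. The difference was smaller on day 11 by this test in 8 of 8 disaggregase transcripts, 12 of the cytosolic small HSPs, 10 chaperonins, 10 co-chaperones and 7 of the heat shock factors and partners.

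Other lists are given for day 11 beside day 1. Light-harvesting proteins had 5 lower transcripts of 25 and none higher (median -0.46), with 10 lower between the days. On day 1 the light-harvesting proteins had 6 higher and a median of 0.18. Among markers of leaf cell types, day 11 had 3 lower of 18 mesophyll markers (median -0.37) and none called of 19 phloem markers (median -0.62). Xylem markers had 2 lower of 12 on each day, with a median of -1.35 on day 11 and -0.25 on day 1. The part of cell composition in these values was not tested. RH7, an RNA helicase, differed by 0.49 on day 11 and -0.54 on day 1, and MTHFR2, of folate metabolism, by 0.52 on day 11 and -1.53 on day 1. Copies of the clock genes PRR9 (AUR62022677) and PRR5 (AUR62004561) were lower on both days, by 0.78 and 0.60 on day 11. Their copies with the larger day 1 falls were not called on day 11. PRR9 AUR62028076 differed by -0.53 on day 11 and -2.50 on day 1, a change called between days. PRR5 AUR62005995 differed by -0.32 on day 11 and -2.03 on day 1, a change not called. FRS11 differed by 2.02 on day 11 and 1.07 on day 1, and this change between days was not called.

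**Figure D4:**
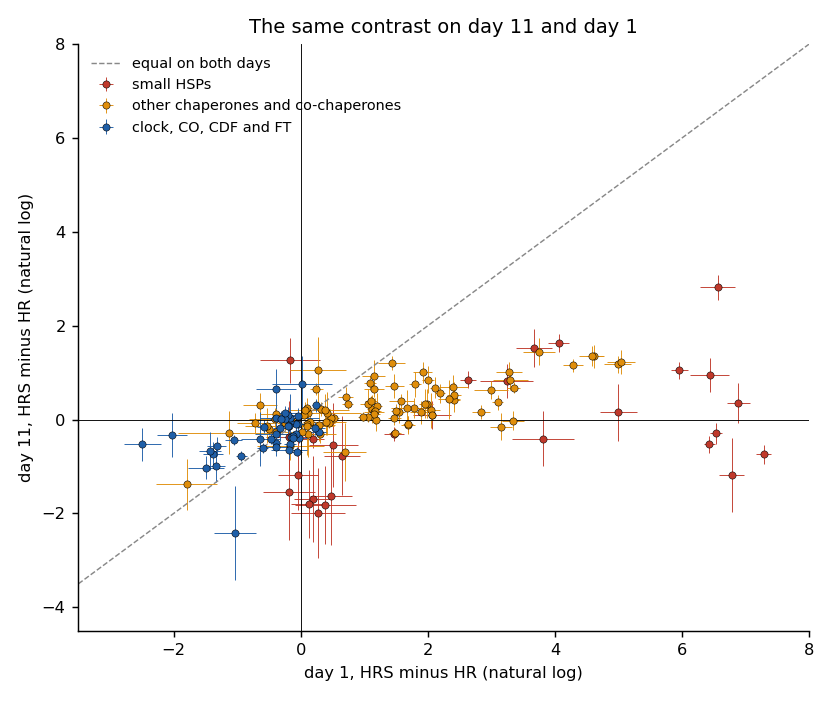
HRS minus HR (natural log, points with 1 SE either way) on day 11 against day 1 for small HSPs (red), other chaperones and co-chaperones (orange) and clock, CO, CDF and FT transcripts (blue), leaving out those with a day 1 SE of 1 or more; the dashed line marks equal values. Chaperone transcripts that differ by 4 or more on day 1 lie far below the diagonal, as HSP101 does with 1.35 on day 11 and 4.58 on day 1.

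HRS was also set beside HS on day 1, where both groups had hot shoots and the roots differed. This comparison uses the same HRS plants, so its values are given side by side. Of 29988 transcripts, 12 were called (0.04%), 3 higher and 9 lower, where 2699 had an unadjusted p under 0.05, and none with the largest variance. Without centring, 1 was higher and 11 lower. HSP101 AUR62021576 differed by -0.20 between HRS and HS (95% interval -0.55 to 0.16) and by 4.58 between HRS and HR. HSP17.6C AUR62009590 differed by -0.27 from HS (-0.57 to 0.03), MBF1C AUR62033396 by 0.14 (-0.49 to 0.76) and PRR9 AUR62028076 by -0.35 (-1.0 to 0.30). The intervals of HSP25.3 AUR62035610, at -0.35 (-0.58 to -0.11), and GOLS1 AUR62011750, at -0.65 (-1.10 to -0.19), left out 0, though neither was called after adjustment (adjusted p = 0.400 and 0.411). All 20 phloem marker transcripts, copies matched to a list of 3 Arabidopsis loci, were below 0 in HRS minus HS. They lay between -1.05 and -0.06 with a median of -0.57, and none was called. None of the lists held a called transcript in HRS minus HS.

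The 3 smallest p-values in each direction of HRS minus HS belonged to disease resistance genes, an RNA-binding protein and an auxin conjugate hydrolase. Of the 9 transcripts called lower, only the 3 with the smallest p-values are named. At1g69550 was higher in 2 copies, by 1.13 (AUR62044075) and 0.81 (AUR62032429), and RBG7, a glycine-rich RNA-binding protein under clock control, by 1.07. RPPL1, a resistance protein of the RPP13 type, was lower in 2 copies, by -2.40 and -2.19. ILR1 AUR62028493, which releases auxin from its conjugates, was lower than in HS by -3.88 and lower than in HR by -4.26 (SE 0.31, 70.8-fold).

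**Figure D5:**
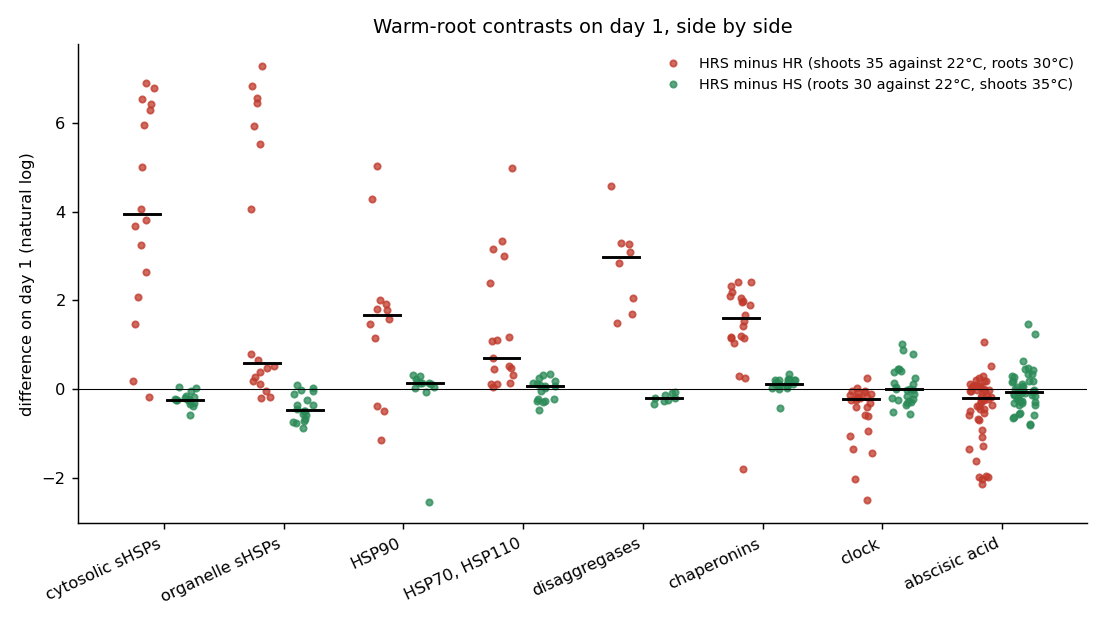
HRS minus HR (red) and HRS minus HS (green) on day 1 (natural log) for the members of 8 gene lists, leaving out those with a day 1 SE of 1 or more, with a black bar at the median of the points drawn; the HRS plants are shared. HSP25.3 lies at 7.28 against HR and at -0.35 against HS.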

How the data were processed

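The authors trimmed reads with trimmomatic 0.38, estimated counts per transcript with kallisto 0.44.0 against the quinoa transcriptome, version 1.0, and fitted each treatment and day against its own control in sleuth 0.30.0. The authors' deposited table lists 44776 transcripts and 6 such fits, each of 3 treated and 3 control plants. The authors' means are in natural log units of estimated counts that sleuth had normalized, and the deposited variance columns are on the square of that scale. Its effect sizes, standard errors, p-values and q-values are the authors' own comparisons and were not used. Values of single plants fill 0 columns. Depth per plant was not analysed here, and precision is given by standard errors.

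HRS minus HR was computed as 2 times the difference between the mean of the HRS fit and that of the HR fit, in which the control plants cancel. Each fit was scaled on its own, so the median over all transcripts tested in both fits was subtracted. It was 0.03 on day 1, -0.11 on day 11, and -0.10 for HRS minus HS. Scaling cancels less well in transcripts with few reads, whose differences may be off by up to this offset. The spread was taken as equal in control, HR and HRS, from the residual variances of the fits, and moderated with limma 3.58.1 (R 4.3.3) with a trend over abundance, giving 9.69 degrees of freedom on day 1. P-values were two-sided, from the t distribution, adjusted by Benjamini-Hochberg over all transcripts of a comparison and called under 0.05. The functions were tested on simulated data. Python 3.11.15, pandas 2.3.3, numpy 2.4.6, scipy 1.17.1 and matplotlib 3.10.9 were used.

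Gene lists of Arabidopsis loci were matched through the Arabidopsis locus named in the table, and each transcript carries that locus's name. Members and lists were chosen with earlier results of these data known. Named transcripts were, among those called, above the lower quartile of abundance and with an Arabidopsis match, the 10 highest and 10 lowest differences and the 5 smallest p-values in each direction; up to 3 called members in each direction of a list and members of textbook importance; and the 3 smallest p-values in each direction for the difference between days and for HRS minus HS. Any other name was chosen after its value was seen. Alternatives were the largest variance of HRS and HR that the fits allow, and a z test with shrunken variances and the largest standard error. Both use the largest spread, so they are not independent checks. Further alternatives were no trend, 3 other centrings, a filter on low abundance, other thresholds and 1 transcript for each Arabidopsis locus. Sequences and coordinates were not used here, because 0 transcript identifiers matched the reference gene table.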

Additional observations from a re-analysis of the deposited data

Results flagged for a closer look

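The difference between HRS and HR itself differed between day 11 and day 1 in 1235 transcripts, by the test of day 11 minus day 1 (limma, adjusted p under 0.05). Values below are day 11 minus day 1 on the natural log scale, for the named transcripts with that call, and the days come from different plants. Many of these transcripts were named by their day 1 calls or differences. That choice favours values below 0 where HRS was higher on day 1, and above 0 where it was lower. The signs below are therefore partly set by the choice.

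Among small HSPs, the value was -8.02 for HSP25.3, -6.53, -6.83, -6.96, -4.91 and -7.97 for copies of HSP17.6C, -3.75 for HSP23.6 and -5.48 for HSP22.0. Larger chaperones gave -3.81 and -3.13 for HSP90-1, -3.81 for HSP70-7, -3.35 and -3.3 for HSP70-8, -3.23 and -2.73 for HSP101, and -2.45 and -2.26 for HSA32. The co-chaperones BAG6 (-3.27 and -2.67) and P23-2 (-2.31), the chaperonins CPN20 (-1.99 and -1.9) and CPN10-1 (-1.9), and BIP2 of the ER (-3 and -3.02) went the same way. So did the regulators MBF1C (-2.99 and -2.84), HSFB2B (-1.92) and HSFB1 (-1.71 and -1.17).

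In the plastid, FTSH6 gave -4.34 and -3.2, LHCA1 -1.22 and -1.29, LHCA4 -0.674, SBPASE -0.57, DEG1 -0.681 and FSD2 -1.77 and -1.12. Elsewhere, the value was -3.58 for At5g07330, -0.933 for CSD1, -2.38 and -2.36 for GOLS1, -1.48 for DIN10, -2.04 and -1.75 for PIP1-4, -0.887 for PHYA and -1.07 for ICS1.

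The opposite sign was found for transcripts that were lower in HRS on day 1. These were At1g77520 (3.14), At5g02890 (2.28), At5g48490 (3.5), NIA2 (2.75), SMT3 (0.808), At4g08690 (0.563), PPC3 (0.782), RH7 (1.02), RPL7A (1.05), MTHFR2 (2.05), PRR9 (1.97), HYH (1.05), GR2 (0.538), FAD8 (0.964), WRKY70 (1.61) and CESA4 (0.772).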

How the results depend on the processing

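No result reversed under any alternative run. The 6126 calls of day 1 became 1991 with the largest variance the fits allow, 2904 with the z test, 3293 with 1 transcript for each Arabidopsis locus, 2873 at an adjusted p under 0.01 and 2471 with a change of at least 2-fold. For day 11, the 675 calls became 0 with the largest variance, 243 with the z test, 278 without a trend, 345 without transcripts under the lower quartile of abundance, 259 with 1 transcript for each locus, 108 at 0.01 and 1703 at 0.1. For day 11 against day 1, the 1235 calls became 159 with the largest variance, 281 with the z test, 1931 without centring, 677 with 1 transcript for each locus, 471 at 0.01 and 2168 at 0.1. For HRS minus HS, the 12 calls became 0 with the largest variance, 7 without a trend, 1 with 1 transcript for each locus and 5 at 0.01. The causes were not tested, except that fewer transcripts enter with 1 for each locus or without the low ones. Of 125 named transcripts called on day 1, 41 lost that call with the largest variance, 25 with the z test, 15 without a trend, 3 without centring and 2 when centred on transcripts above the median abundance. Leaving out each plant was not run, because the table gave no values of single plants. No paired analysis was run, since each sample was a separate plant and no matching of plants between groups was given. Technical variance made up a median of 25.6% of the residual variance of the HRS fit, and 39% below the lower quartile of abundance.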
